A study of Mus musculus with 23 samples.

Results

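Complement components and receptors were followed through 23 RNA-seq libraries of sorted mouse retinal microglia. The 9 genes, out of 35825 in the table, were chosen by name from what their products do; the rule uses no measured value, although earlier results of these data were known when it was set. They are C1qa, C1qb and C1qc, the 3 chains of C1q; C3 and C4b, the components that are cleaved and laid down on a target; Itgam and Itgb2, the CD11b and CD18 chains of complement receptor 3; and C3ar1 and C5ar1, the receptors of the released fragments C3a and C5a. All 9 were among the 17102 genes that passed the filter on low values (3 or more libraries with a normalized count of 10 or above).

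The cells were GFP+ microglia from CX3CR1-GFP mice, in which GFP stands in the Cx3cr1 gene and marks microglia and other mononuclear phagocytes, and either carried a normal Spp1 gene (WT) or were Spp1 KO; CX3CR1-GFP (KO), the same reporter on a Spp1 knockout background; WT and KO below stand for these labels. Retinas were naïve, or taken 4 weeks after intraocular pressure (IOP) was raised with microbeads in the anterior chamber, or at day 7 after optic nerve crush (ONC). Each group held 4 libraries except WT ONC, with 3. The methods describe pooling of retinas of several mice before dissociation, but whether each library was such a pool or a single animal is not clear from the sources used here, and neither is the age of the mice. The p-values therefore measure the spread between libraries.

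The complement cascade is a set of plasma and tissue proteins that tag cells, synapses and debris for removal. In the classical pathway C1q binds a target and leads to cleavage of C4 and C3, and fragments of C3 left on the target are bound by complement receptor 3 on phagocytes, while the small fragments C3a and C5a act on G protein-coupled receptors. Microglia are the main source of C1q in the brain and retina and carry complement receptor 3, and this route is known for the removal of synapses in development and in models of glaucoma.

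The 3 C1q genes lie side by side on the minus strand within 18675 bases of chromosome 4 (GRCm38): C1qb at chr4:136880129-136886187, C1qc at chr4:136889804-136893065 and C1qa at chr4:136895917-136898803. C3 is at chr17:57203970-57228136 and C4b at chr17:34728380-34743882, both on the minus strand. Itgam is at chr7:128062640-128118491 and Itgb2 at chr10:77530252-77565708, both on the plus strand. C3ar1 is at chr6:122847138-122856161 and C5ar1 at chr7:16246743-16259540, both on the minus strand. C4b has a near-identical paralog, C4a, which was not analysed here, and Itgam overlaps Gm49368 on the same strand, so reads of these 2 members may be divided with another gene.

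Promoter sequence from RefSeq (GRCm38.p6) was at hand for 6 of the 9 members, C1qb, C1qc, C3, C3ar1, C5ar1 and Itgam. The 250 bases before the start of transcription that RefSeq gives were searched on both strands for GAGGAA, the core bound by PU.1, the ETS factor of the myeloid lineage, and for TTGCNNAA, a pair of C/EBP half-sites. GAGGAA was found once in C1qb, once in C1qc and 2 times in Itgam, and 23.3% of 32851 promoters of this length hold it. TTGCNNAA was found once, in C3, and in 9.56% of promoters. The 4 promoters with a match are shown 5′ to 3′ on the strand of the gene so that the place of each match can be seen; capitals mark GAGGAA or its reverse complement in the C1qb, C1qc and Itgam sequences and TTGCNNAA in the C3 sequence, and no match overlaps another.
C1qb, chr4:136886201-136886450, minus strand: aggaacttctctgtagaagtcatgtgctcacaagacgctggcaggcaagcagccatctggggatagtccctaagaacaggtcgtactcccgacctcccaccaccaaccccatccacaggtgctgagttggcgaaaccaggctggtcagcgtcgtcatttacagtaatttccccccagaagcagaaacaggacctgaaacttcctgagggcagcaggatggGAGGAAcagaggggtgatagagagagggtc
C1qc, chr4:136892915-136893164, minus strand: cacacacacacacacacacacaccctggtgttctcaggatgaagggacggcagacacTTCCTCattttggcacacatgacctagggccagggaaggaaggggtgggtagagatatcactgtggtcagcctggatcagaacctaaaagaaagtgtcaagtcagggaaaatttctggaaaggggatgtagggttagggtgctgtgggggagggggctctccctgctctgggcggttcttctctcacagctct
Itgam, chr7:128062390-128062639, plus strand: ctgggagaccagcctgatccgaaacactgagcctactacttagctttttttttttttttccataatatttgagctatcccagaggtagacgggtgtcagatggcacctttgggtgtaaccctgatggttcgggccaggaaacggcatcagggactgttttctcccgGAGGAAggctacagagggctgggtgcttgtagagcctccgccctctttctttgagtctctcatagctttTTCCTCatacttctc
C3, chr17:57228137-57228386, minus strand: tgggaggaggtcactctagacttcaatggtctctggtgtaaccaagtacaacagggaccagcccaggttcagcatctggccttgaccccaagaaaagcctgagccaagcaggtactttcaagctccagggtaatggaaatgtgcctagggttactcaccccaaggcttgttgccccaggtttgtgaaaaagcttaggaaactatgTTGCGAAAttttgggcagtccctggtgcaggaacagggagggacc
The gene positions above are those of GENCODE, which differ from RefSeq in where some genes start, so the windows of C1qc, C3ar1 and C5ar1 lie partly inside the genes as given above. No match says only that these letters are not in this window.

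Reads on genes ran from 22180480 to 30296094 per library, and 3 reads, up to which a gene listed at 0 may reach, were worth 2.41 to 4.03 normalized counts; this limit covers counting error only. Libraries were not uniform in the transcripts of cell types, and in bulk libraries fewer cells of a type and less RNA per cell cannot be told apart. A list of 10 myeloid genes (Csf1r, Aif1, Ptprc, Cd68, Tyrobp, Fcer1g, Laptm5, Spi1, Ctss and Irf8) was above 10 in every library, yet its summed normalized count was 243460, 260149 and 286862 in KO naïve replicates 1, 2 and 4 against 777315 in replicate 3 and 569007 to 741060 in WT naïve. In the same 3 libraries a list of 10 rod genes summed to 635928 to 726081 against 287485 in KO naïve replicate 3. WT IOP replicates 1 and 4 were lower in myeloid genes (358504 and 392706 against 636502 and 675333) and higher in lens genes (191110 and 210466 against 28833 and 44035), and WT ONC replicate 2 was lower in myeloid genes (652155 against 1026712 and 1073182). The lens sum set all WT IOP libraries apart, at 28833 or more against at most 2838 in every other group. Reads of Spp1 remained in libraries labelled KO, at 6.78 to 350 in the naïve, 9.28 to 811 in the IOP and up to 6811 in the ONC group, against 334 to 22906 in WT. KO ONC replicates 1, 2 and 4, at 4750, 6811 and 6226, were above every WT naïve and WT IOP library, and limma called Spp1 itself in no contrast of KO with WT, at log2 fold changes of -3.66, -4.23 and -3.71 in naïve, IOP and ONC retinas (adjusted p = 0.261, 0.141 and 0.506). The KO IOP libraries also stood apart in Cx3cr1, at 952 to 1233 against at least 9417 in every other library, and 4 Y-linked genes summed to 101 to 169 in this group against 1269 to 4918 in WT IOP. Low Y-linked sums were not confined to KO IOP. They ran from 106 to 5466 in WT naïve, 184 to 4927 in KO naïve and 108 to 4633 (median 159) in WT ONC, against 2919 to 5001 in KO ONC libraries. Neutrophil genes summed to at most 104 and lymphocyte genes to at most 181 in any library.

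The 3 chains of C1q were the most abundant of the members. Together they took up 0.946% ± 0.0574 (SD, n = 4) of all normalized counts in WT naïve libraries, 0.813% ± 0.190 (n = 4) after IOP elevation and 1.38% ± 0.180 (n = 3) after ONC. In KO libraries the share was 0.652% ± 0.320 (n = 4) in naïve, 1.25% ± 0.0544 (n = 4) in IOP and 1.68% ± 0.105 (n = 4) in ONC retinas. Per kilobase of exon, the WT naïve order of levels was C1qb (110734 ± 8651 normalized counts per kilobase, SD, n = 4), C1qa (40955 ± 4609), C1qc (38853 ± 1824), Itgam (6293 ± 872), Itgb2 (4235 ± 528), C5ar1 (3113 ± 619), C3ar1 (2666 ± 429), C4b (368 ± 39.7) and C3 (80.8 ± 22.7). The libraries of C1qa and C1qc overlapped, as did those of C5ar1 and C3ar1, while each other neighbour in the order was separated in all 4 libraries. The place of C1qc depends on the length used, since its longest transcript has 1203 bases and the union of its exons 1931; with the former its WT naïve level was 62365, above C1qa in every library.

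C1qa, which carries a binding face of C1q, counted 38556 to 49406 in WT naïve, 26012 to 47364 in WT IOP and 40422 to 77743 in WT ONC libraries. In KO libraries C1qa counted 13782 to 49682 in naïve, 51465 to 62848 in IOP and 57637 to 79408 in ONC retinas. C1qb, the most abundant member, counted 111955 to 133830, 74063 to 124940 and 149827 to 233170 in the naïve, IOP and ONC libraries of WT, and 47786 to 145855, 157217 to 168354 and 227542 to 283798 in those of KO. Thus all WT ONC libraries lay above all WT naïve libraries in C1qb, and not in C1qa, where WT ONC replicate 2 fell among the naïve values.

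C1qc in WT counted 77042, 70359, 74364 and 78335 in naïve, 50363, 87307, 78841 and 47353 in IOP and 227319, 111069 and 193028 in ONC libraries. In KO it counted 35639, 37122, 99755 and 36850 in naïve, 103571, 110413, 128069 and 108153 in IOP and 184341, 207609, 185548 and 142808 in ONC libraries. Every ONC library of either genotype was above every naïve library of the same genotype, and the lowest WT ONC library and the lowest KO ONC library were above all naïve libraries of the study. KO naïve replicate 3 was just under the KO IOP range for all 3 chains, whereas the other KO naïve libraries were the lowest of the series.

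C3, the component on which all complement pathways converge, was the lowest of the members. It counted 534, 490, 354 and 284 in WT naïve, 431, 453, 653 and 442 in WT IOP and 682, 1175 and 957 in WT ONC libraries. In KO, C3 counted 501, 77.2, 219 and 212 in naïve, 677, 634, 852 and 1243 in IOP and 1022, 1868, 1495 and 1340 in ONC libraries. The ONC groups did not overlap with the naïve group of their genotype, and KO IOP did not overlap with KO naïve.

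C4b, which is cleaved after C1q binds, counted 2353, 1824, 2026 and 2186 in WT naïve and 2335, 5650, 2704 and 3159 in WT IOP libraries, and rose to 8618, 7039 and 11501 in WT ONC libraries. In KO naïve libraries C4b counted 2016, 875, 4687 and 899. The KO IOP group was split, with 2778 and 3157 in replicates 1 and 3 and 20994 and 19393, the highest values of the series, in replicates 2 and 4, while the KO ONC libraries lay close together at 10955, 9486, 9610 and 9285. KO IOP replicates 2 and 4 differed from 1 and 3 in other transcripts too. Spp1 counted 811 and 761 against 25.5 and 9.28, the pigment epithelium list summed to 4129 and 3737 against 259 and 252, the monocyte list to 2798 and 2594 against 1504 and 471, and the Müller glia and astrocyte list to 477734 and 472563 against 350406 and 357137. The part of these other cells in the C4b values was not tested.

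Itgam, the CD11b chain that sets the ligands of complement receptor 3, counted 34666, 25268, 34406 and 32119 in WT naïve, 13468, 23188, 22483 and 15543 in WT IOP and 42722, 22865 and 47183 in WT ONC libraries. In KO it counted 7175, 7412, 31622 and 8715 in naïve, 31791, 37217, 37189 and 36625 in IOP and 31203, 38991, 41969 and 29701 in ONC libraries. All WT IOP libraries were below all WT naïve libraries, whereas in KO the IOP libraries were all above the naïve ones, by a narrow margin over KO naïve replicate 3.

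Itgb2, the CD18 chain shared with other leukocyte integrins, counted 15205, 11564, 12058 and 12876 in WT naïve, 7852, 14578, 12416 and 8500 in WT IOP and 33749, 17368 and 32740 in WT ONC libraries. In KO it counted 5158, 4728, 15798 and 6599 in naïve, 16931, 16243, 16565 and 15308 in IOP and 25871, 30692, 29165 and 21995 in ONC libraries. ONC and naïve libraries were separate in each genotype, unlike for Itgam.

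C3ar1 counted 9180 to 13677 in WT naïve, 8115 to 20073 in WT IOP and 11093 to 24241 in WT ONC libraries, and 5232 to 15831, 15431 to 17837 and 10902 to 16019 in the KO naïve, IOP and ONC libraries. C5ar1 in WT counted 9382, 8602, 5713 and 8299 in naïve, 7051, 14390, 11022 and 7469 in IOP and 15238, 4040 and 13416 in ONC libraries. In KO, C5ar1 counted 4236, 4709, 13124 and 4636 in naïve, 11382, 12425, 11519 and 11265 in IOP and 11952, 8209, 8478 and 7464 in ONC libraries. For these 2 receptors every injury group overlapped with its naïve group, and the lowest WT ONC value of each was that of replicate 2.

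**Figure D1:**
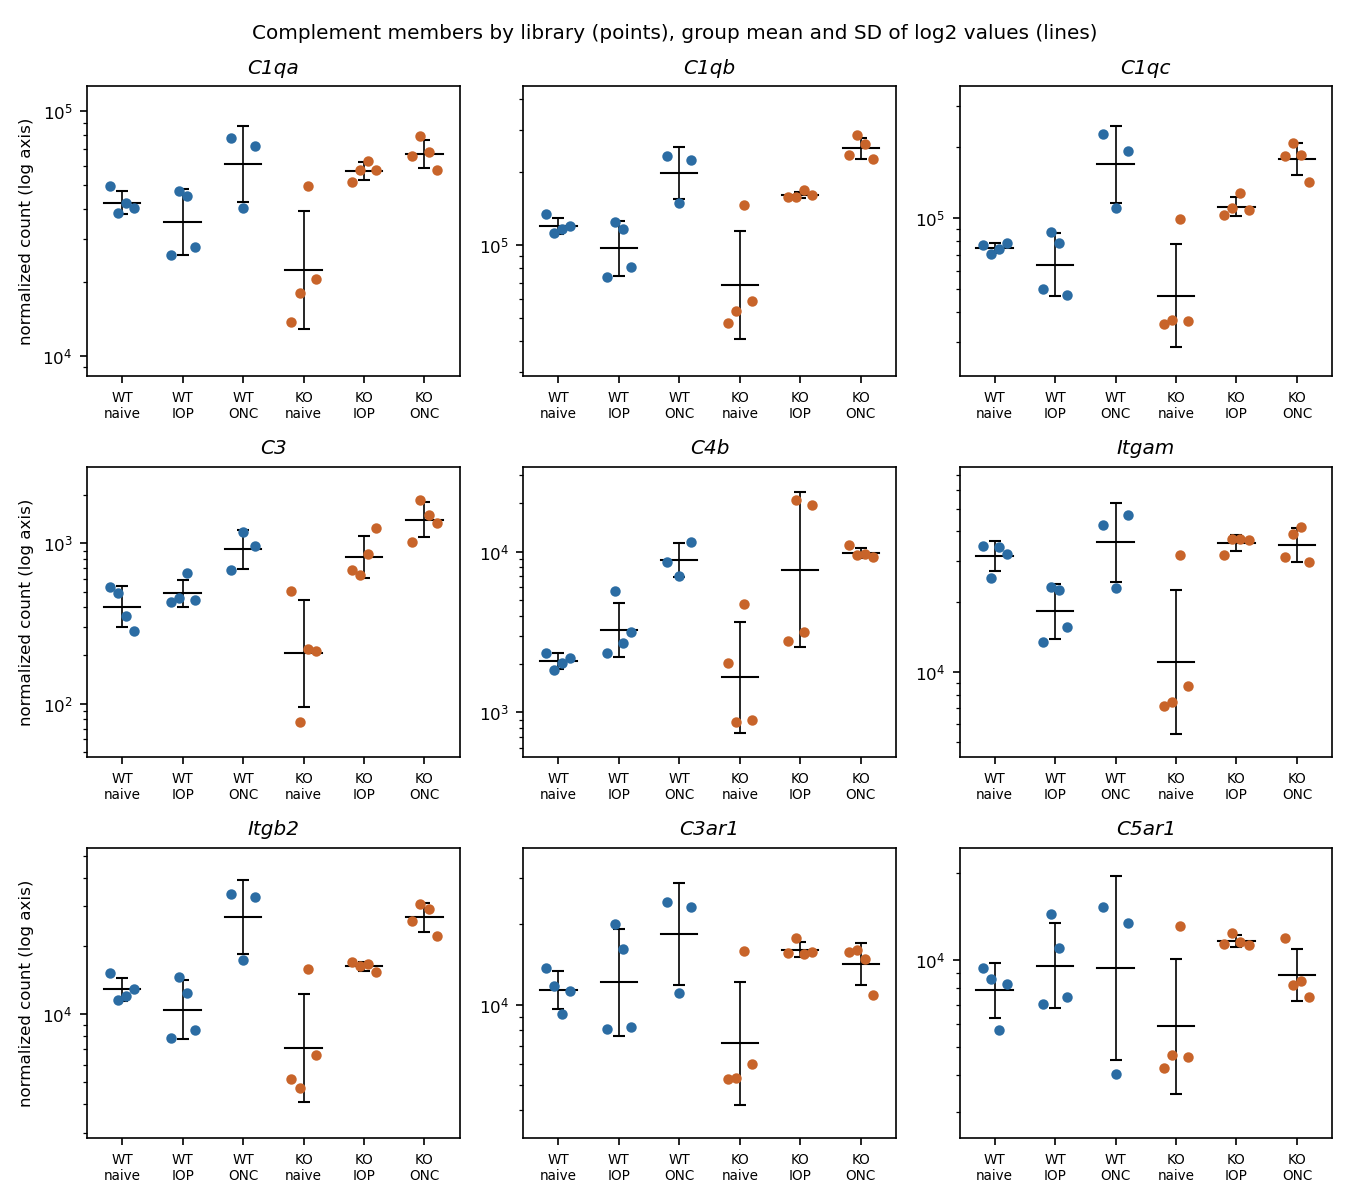
Normalized count of each member (log axis) in the 23 libraries, by group; points are libraries (WT blue, KO orange) and lines are the mean and SD of log2 values. C4b in KO IOP falls into a pair at 2778 and 3157 and a pair at 19393 and 20994, and 1 KO naïve library, replicate 3, sits above the other 3 in most panels.

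The response to ONC in WT asks which members differ at day 7 after the optic nerve is crushed. Of the 9 members, C4b, C1qc and Itgb2 rose and none fell, with the background at 18.1% of all tested genes called and 7.55% called higher (called: a log2 fold change beyond 0.58 in either direction with an adjusted p below 0.05, limma on log2 of the normalized count plus a pseudocount of 1, Benjamini-Hochberg over 17102 genes). C4b was higher by 2.09 ± 0.60 (log2 fold change ± SE, adjusted p = 0.0191), C1qc by 1.18 ± 0.32 (adjusted p = 0.0152) and Itgb2 by 1.06 ± 0.32 (adjusted p = 0.0233). C3, at 1.18 ± 0.41, did not pass (adjusted p = 0.0506), nor did C1qb (0.72 ± 0.31, adjusted p = 0.104) or C1qa (0.53 ± 0.33, adjusted p = 0.264). Itgam differed by 0.19 with a 95% interval of -0.58 to 0.96, and C5ar1 by 0.25 with an interval of -0.56 to 1.07. The median log2 fold change was 0.72 over the members and -0.10 over all genes tested. Groups did not overlap for 5 members, C1qb, C1qc, C3, C4b and Itgb2, all higher in ONC, against 12.1% of tested genes. The count rests on single libraries: 5 members were called without WT ONC replicate 2, and 0 without WT ONC replicate 1 or without WT ONC replicate 3. Over all genes 5214 were called without WT ONC replicate 2 and 1459 without WT ONC replicate 1, against 3093 in the full fit.

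In KO, 8 of the 9 members rose after ONC, against a background of 23.6% called and 12.7% called higher; the exception was C5ar1 (0.59 ± 0.36, adjusted p = 0.244). C3 had the highest log2 fold change, 2.76 ± 0.38, followed by C4b at 2.57 ± 0.56. The C1q chains rose by 1.58 ± 0.30 (C1qa), 1.88 ± 0.29 (C1qb) and 1.93 ± 0.30 (C1qc), and Itgb2 by 1.91 ± 0.29. Itgam rose by 1.67 ± 0.34 and C3ar1 by 0.99 ± 0.33, although the libraries of these 2 genes overlapped between groups; adjusted p over the 8 ran up to 0.0320. On recovered reads C3ar1 was not called by edgeR (adjusted p = 0.0732) or DESeq2 (adjusted p = 0.0526), while the other 7 were. The median was 1.88 over the members and -0.12 over all genes. Groups did not overlap for 6 members (background 13.4% higher). Without KO naïve replicates 1, 2 and 4, left out after values were seen, replicate 3 remained as the only naïve library. It was the highest of its group for C1qb and Itgam, so smaller differences for these were set by the choice. Against it C3 was at 2.67, C1qb at 0.78 and Itgam at 0.15, and 1 library gives no spread for a test.

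After IOP elevation in WT no member was called by limma, against 1.56% of genes, and edgeR and DESeq2 on recovered reads also called 0. Itgam (-0.79 ± 0.34, adjusted p = 0.320) was the only member whose groups did not overlap (background 7.03% lower). C4b was at 0.64 with an interval of -0.51 to 1.80, and the C1q chains were between -0.31 and -0.24. The median was -0.24 over the members and -0.02 over all genes. Without WT IOP replicates 1 and 4 Itgam was at -0.46, and C1qa at 0.13. Lens genes summed to 28833 to 210466 in WT IOP and 104 to 2045 in WT naïve libraries, and their part was not tested.

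In KO, 8 members rose after IOP elevation, again all but C5ar1 (0.98 ± 0.36, adjusted p = 0.0889), against 7.88% of genes called and 5.06% called higher. The rises were 2.23 ± 0.56 for C4b, 1.99 ± 0.38 for C3, 1.70 ± 0.34 for Itgam, 1.35 ± 0.30 for C1qa, 1.26 ± 0.30 for C1qc, 1.24 ± 0.29 for C1qb, 1.19 ± 0.29 for Itgb2 and 1.17 ± 0.33 for C3ar1, with adjusted p from 0.00914 to 0.0364. On recovered reads DESeq2 called all 8 and edgeR 6, without Itgb2 (adjusted p = 0.0589) and C3ar1 (adjusted p = 0.0807). Beside these rises, Cx3cr1 fell by 4.17 on the log2 scale between the same groups (adjusted p = 8.33e-07), and the Y-linked genes summed to 101 to 169 in KO IOP and 184 to 4927 in KO naïve libraries; their part was not tested. Groups did not overlap for C1qa, C1qb, C1qc, C3 and Itgam, 5 members against 5.43% of genes higher in this way. The median was 1.26 over the members and -0.12 over all genes. The calls depend on the libraries: 2, 1 and 1 members were called without KO naïve replicate 1, 2 or 4 in turn, 5 without KO IOP replicate 3 and 0 without KO IOP replicates 2 and 4 together (C4b 0.84, C3 1.88). No member was called with the 2 groups fitted alone, either. Over all genes 5 were called in that fit and 91 without KO naïve replicate 2, against 1347 in the full fit. With KO naïve replicate 3 as the only naïve library C1qa was at 0.20 and C3 at 1.90.

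The labelled genotypes were compared at each stage as KO against WT, and limma called no member in any of the 3. In naïve retinas all 9 values were below 0, with a median of -0.82 against 0.03 over all genes and a background of 0.409% called. Itgam came nearest (-1.51 ± 0.34, adjusted p = 0.0552); DESeq2 called it (-1.20, adjusted p = 0.0339) and edgeR did not (-1.22, adjusted p = 0.136). With KO naïve replicate 3 left out 6 members were called lower, beside 1623 genes called over all genes against 70 in the full fit. With only that library kept, the highest of its group for both, Itgam was at 0.01 and C1qa at 0.23.

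After IOP elevation all 9 values were above 0, with a median of 0.74 against -0.03 and a background of 2.11% called. C4b differed most, by 1.25 ± 0.56 (adjusted p = 0.205), and DESeq2 called it (1.74, adjusted p = 0.0280) while edgeR did not (1.75, adjusted p = 0.116); without KO IOP replicates 2 and 4 it was at -0.14. Itgam was at 0.97 ± 0.34 (adjusted p = 0.126), C1qc at 0.82 ± 0.30 (adjusted p = 0.137), C1qb at 0.74 ± 0.29 and C1qa at 0.69 ± 0.30. For C1qa, C1qb, C1qc, Itgam and Itgb2 every KO library was above every WT library, as for 5.11% of genes. Beside these values stand the myeloid sums, 745760 to 907109 in KO IOP and 358504 to 675333 in WT IOP. The Cx3cr1, Y-linked and lens differences given above stand beside them too. None of these can be told apart from the labelled genotype in this contrast. After ONC the members were at a median of 0.07 against 0.03 over all genes, with a background of 0.0877% called, and edgeR and DESeq2 called 0 members. The intervals are wide all the same, from -0.54 to 0.81 for C1qa, -0.60 to 0.75 for C1qc, -0.25 to 1.47 for C3 and -1.10 to 1.39 for C4b. Y-linked sums differed in this contrast too, with a median of 159 in WT ONC against 2919 to 5001 in KO ONC libraries, and their part was not tested.

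**Figure D2:**
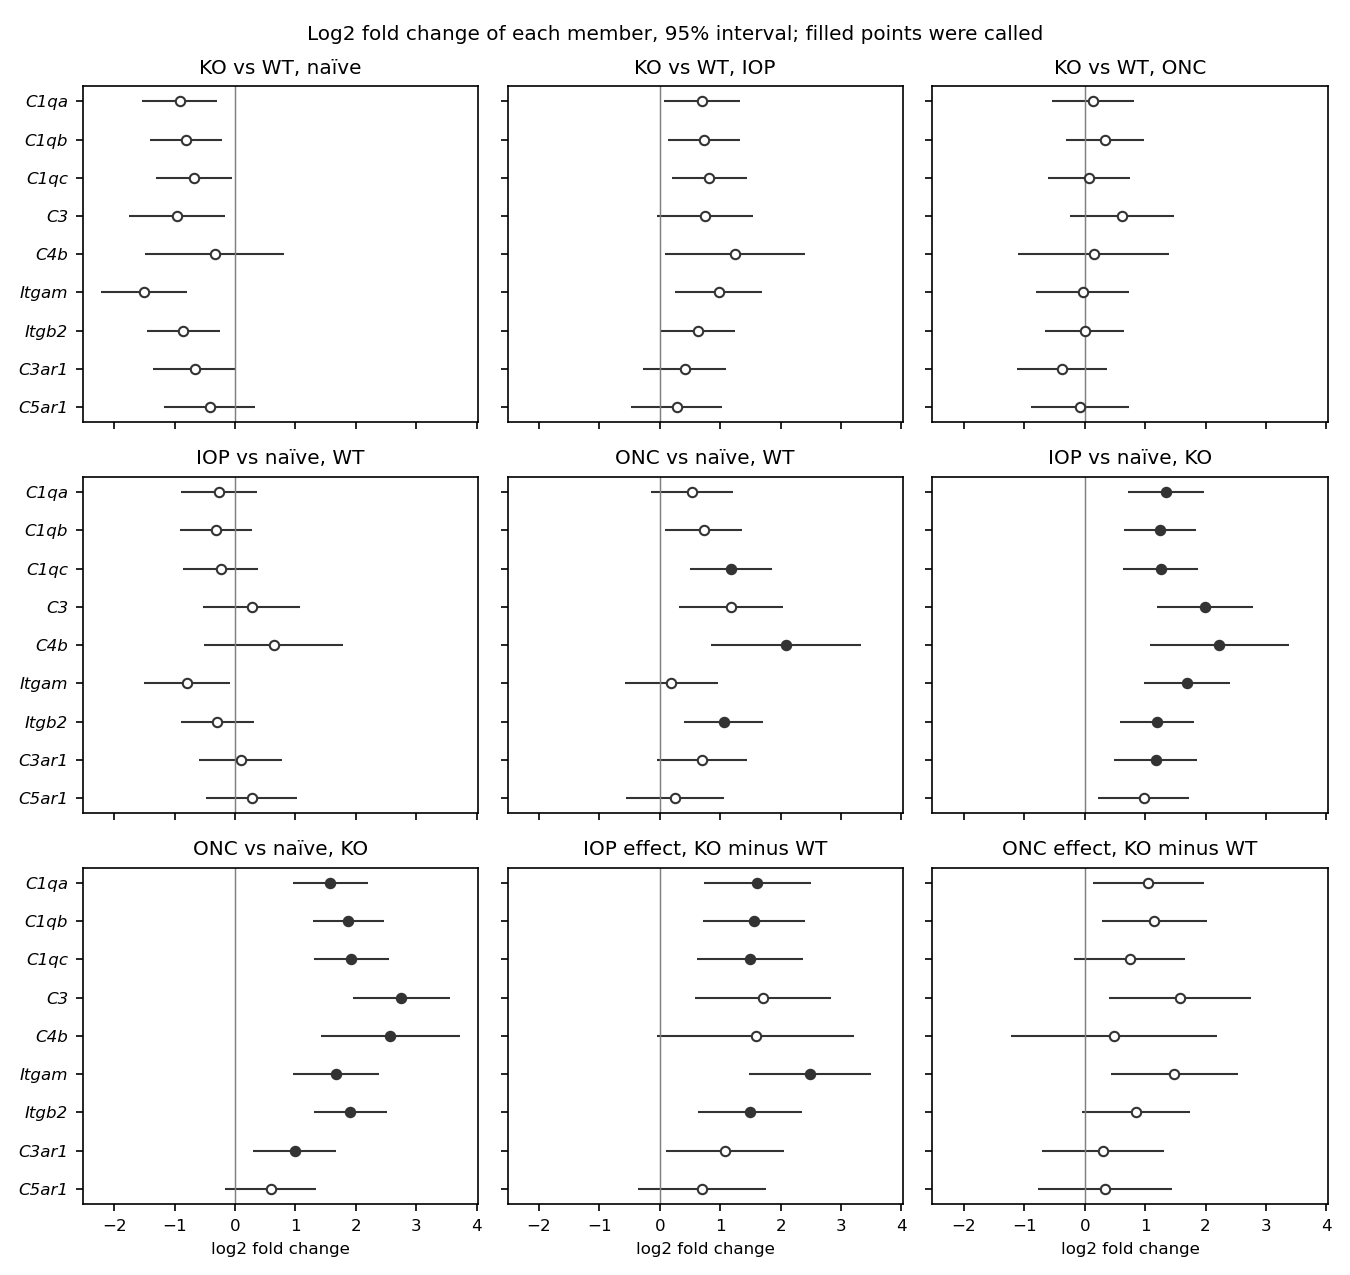
Log2 fold change of the 9 members (points) with 95% intervals (bars) in the 9 comparisons; filled points passed the call. KO naïve libraries are the reference of the panels in which most points are filled, and none of the 27 points of KO against WT is filled.

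Whether the injury response itself differed between genotypes was tested as the difference of the 2 responses. For IOP, 5 members had a higher response in KO than in WT, Itgam (2.48 ± 0.49, adjusted p = 0.00670), C1qa (1.61 ± 0.43, adjusted p = 0.0243), C1qb (1.55 ± 0.40, adjusted p = 0.0228), C1qc (1.49 ± 0.43, adjusted p = 0.0332) and Itgb2 (1.49 ± 0.41, adjusted p = 0.0296), against 8.75% of genes called and 4.85% called higher. C3 was at 1.71 ± 0.54 (adjusted p = 0.0517), C4b at 1.58 ± 0.79 (adjusted p = 0.203) and C3ar1 at 1.08 ± 0.47 (adjusted p = 0.146). The median was 1.55 over the members and -0.08 over all genes. On recovered reads edgeR called 2 members, C1qb and Itgam, and DESeq2 called 6, the same 5 and C3. The difference was called for Cx3cr1 too, at -3.71 (adjusted p = 0.000358). Lens sums were higher in WT IOP than in any other group, as given above, and their part was not tested. The count was 1 without WT IOP replicate 1, WT IOP replicate 4, KO naïve replicate 2 or KO naïve replicate 4. It was 2 without KO naïve replicate 1, and 3 without WT naïve replicate 1, WT naïve replicate 4 or KO IOP replicate 3. Without WT IOP replicates 1 and 4 together it was 0 (Itgam 2.15, adjusted p = 0.0919). Without KO naïve replicates 1, 2 and 4 together Itgam was at 0.96, and the 1 library left gives no spread for a test. For ONC no member was called, against 0.0702% of genes, with 0 called by edgeR and by DESeq2 and a median of 0.85 against 0.05. Without KO naïve replicate 3, 4 members were called, beside 634 over all genes against 12 in the full fit.

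Since myeloid transcripts varied between libraries, each member was also read against the mean log2 value of the 10 myeloid genes of its library. Over the 9 comparisons C1qa, C1qb and C1qc were then between -0.28 and 0.37 on the log2 scale, and Itgb2 between -0.15 and 0.25. This centring moves the median of all genes, by -0.81 in WT ONC, -1.27 in KO IOP, -1.75 in KO ONC and -1.64 in the IOP difference. The myeloid list is not inert, as Cd68 and Tyrobp belong to genes that microglia are known to raise on activation.

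After ONC in WT, Itgam fell relative to the myeloid genes (-0.61 ± 0.17, adjusted p = 0.0141), the only member called, against 26.0% of genes called and 24.4% called lower. C1qc was above them by 0.37 ± 0.11 (adjusted p = 0.0172), short of the fold change set for a call, and C4b by 1.28 ± 0.55 (adjusted p = 0.0808). After ONC in KO, C5ar1 (-1.16 ± 0.21, adjusted p = 0.000112) and C3ar1 (-0.76 ± 0.15, adjusted p = 0.000239) fell, against 76.5% of genes called and 75.9% called lower, a share above that of the members. C3 was at 1.00 ± 0.50 (adjusted p = 0.0698) and C4b at 0.82 ± 0.50 (adjusted p = 0.140). After IOP elevation no member was called in either genotype (background 0.561% in WT and 61.4% in KO); Itgam was at -0.42 ± 0.16 in WT and at 0.42 ± 0.16 in KO (adjusted p = 0.469 and 0.0266). The difference of these 2 responses was called for Itgam, at 0.84 ± 0.22 (adjusted p = 0.00864), and for C5ar1, at -0.94 ± 0.30 (adjusted p = 0.0163), against 52.4% of genes called, 0.123% higher and 52.2% lower. Between KO and WT no member was called in the naïve (background 0.0409%), IOP (8.26%) or ONC (0.0234%) groups, nor in the ONC difference (0.00%).

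**Figure D3:**
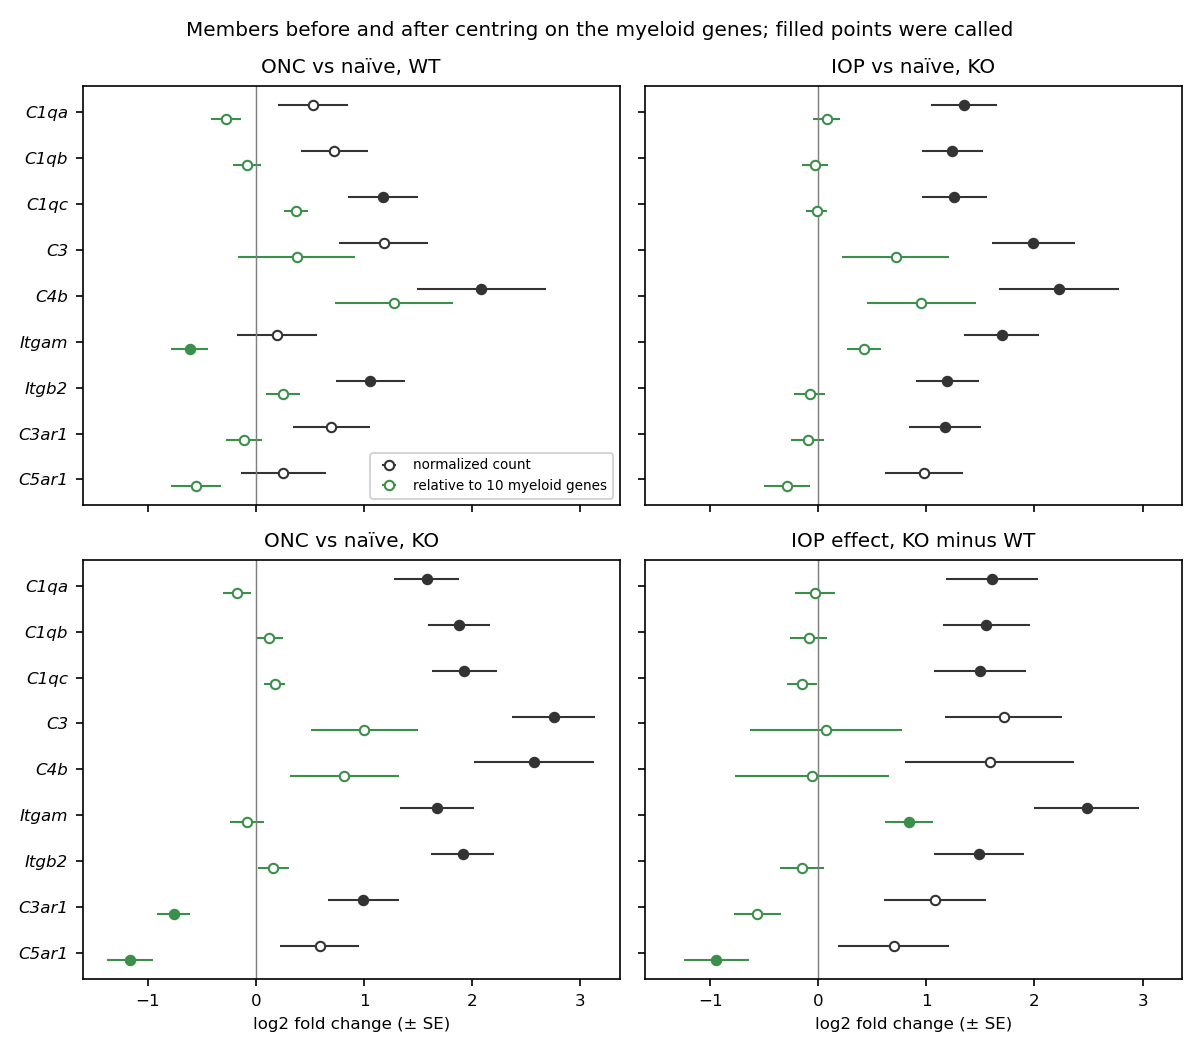
Log2 fold change ± SE of each member from normalized counts (dark) and relative to 10 myeloid genes (green) in 4 comparisons; filled points passed the call. Relative to the myeloid genes the C1q chains and Itgb2 lie between -0.28 and 0.37 in all 4 panels; in the IOP difference Itgam stays above 0, at 0.84, and C5ar1 is at -0.94.

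Ratios of members within a library do not depend on how the library was scaled. The ratio of C1qc to C1qa, per kilobase, was 0.955 ± 0.0884 (SD, n = 4) in WT naïve, 0.971 ± 0.0584 (n = 4) in WT IOP and 1.50 ± 0.0724 (n = 3) in WT ONC libraries. In KO it was 1.14 ± 0.182 (n = 4) in naïve, 1.06 ± 0.0402 (n = 4) in IOP and 1.43 ± 0.0776 (n = 4) in ONC libraries. All WT ONC libraries (1.43 to 1.57) were above all other WT libraries (0.840 to 1.05), while 1 KO naïve library, at 1.39, lay within the KO ONC range of 1.33 to 1.51. For the chains of complement receptor 3, the ratio of Itgam to Itgb2 was 1.49 ± 0.180 in WT naïve, 1.05 ± 0.0663 in WT IOP and 0.815 ± 0.0548 in WT ONC, 3 ranges with no overlap. In KO the ratio was 0.954 ± 0.186 in naïve, 1.34 ± 0.136 in IOP and 0.800 ± 0.0612 in ONC libraries, where ONC overlapped with naïve. These ratios were formed after values had been seen, and no test is given.

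**Figure D4:**
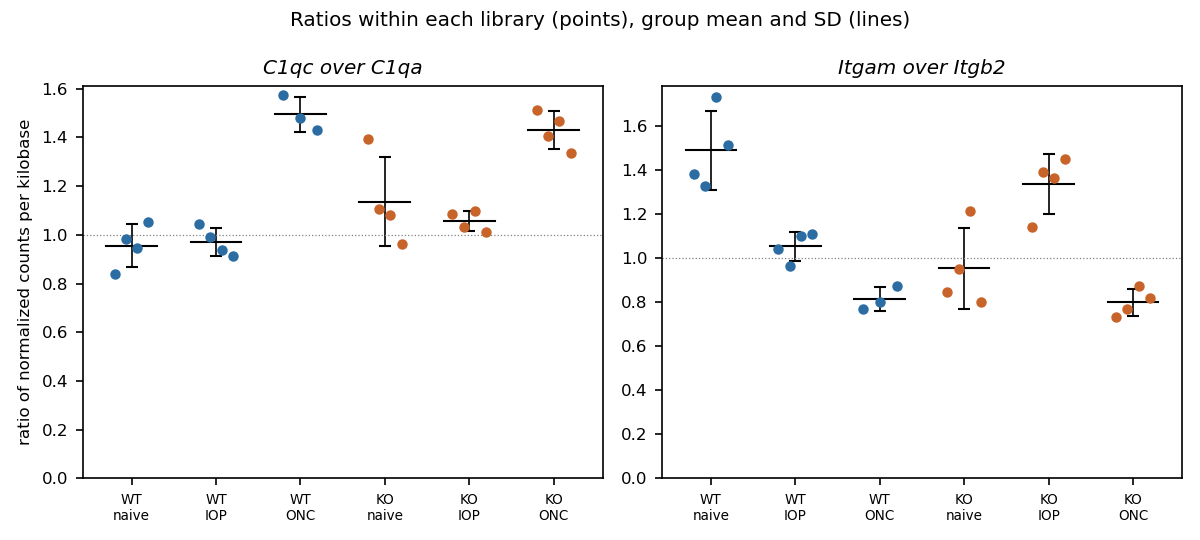
Ratio of C1qc to C1qa and of Itgam to Itgb2, as normalized counts per kilobase, in each library (points), with group mean and SD (lines). ONC libraries of both genotypes are the highest group mean on the left and the lowest on the right.

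Of 36 other complement genes 26 passed the filter, and those called in a comparison are named here. After ONC in WT 4 rose and 4 fell, against 18.1% of all genes called and 7.55% called higher. Factor B (Cfb), the protease of the alternative pathway convertase, counted 131, 247, 333 and 442 in naïve and 1988, 5055 and 3077 in ONC libraries (3.57 ± 0.45, adjusted p = 1.48e-05). Itgax, the CD11c chain that pairs with Itgb2 in complement receptor 4, counted 546 to 765 and 4236 to 6788 (2.96 ± 0.49), and Masp1, a protease of the lectin pathway, 127 to 179 and 648 to 1418 (2.73 ± 0.39). Masp1 overlaps the protein-coding gene Rtp4 on the opposite strand, and Cfb overlaps Gm20547 on the same strand. Strand settings are not given, so counts of Masp1 and Cfb may include reads of these other genes. Factor I (Cfi), which cuts C3b, was at 0 in 3 naïve libraries and at 3.27 in the other, and at 19.9 to 40.3 after ONC. The genes that fell were properdin (Cfp), which steadies the alternative convertase, from 670 to 1757 down to 158 to 344 (-2.46 ± 0.44), Cd93 (-3.82 ± 0.82), the collectin Colec12 (-1.71 ± 0.45) and ficolin A (Fcna), from 106 to 689 down to 0 to 10.4. The border macrophage list fell over the same libraries, from 15764 to 31943 down to 684 to 6165, and its part in these values was not tested.

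In KO, ONC raised 6 of the 26 and lowered 3, against 23.6% of all genes called and 12.7% called higher. Cfb counted 33.8 to 102 in naïve and 2995 to 5803 in ONC libraries (6.09 ± 0.41), Itgax 145 to 538 and 5051 to 7331 (4.75 ± 0.45) and Masp1 109 to 181 and 826 to 1108 (2.90 ± 0.37). C1ra, a C1 protease (2.21 ± 0.72), Lrp1 (0.83 ± 0.25) and Calr (0.88 ± 0.22) rose, and the inhibitors Cd59a (-1.10 ± 0.32), Clu (-1.31 ± 0.39) and Vtn (-1.41 ± 0.32) fell. The pigment epithelium list had a median sum of 15358 in KO naïve and 497 in KO ONC libraries, and the rod list 657194 and 227573. The part of these other cells in the values that fell was not tested. With KO naïve replicate 3 as the only naïve library, which gives no spread for a test, Cfb was at 5.71, Itgax at 3.41 and Masp1 at 2.87. Over both genotypes Cfb counted 1988 to 5803 in ONC libraries and 33.8 to 442 in all others.

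After IOP elevation in WT, Cfi (0 to 3.27 in naïve, 28.3 to 123 in IOP) and the membrane inhibitor Cd59a (1.55 ± 0.32) rose and Fcna, at 0 to 81.0, fell, none of them called without WT IOP replicates 1 and 4. In KO, Cfb (2.18 ± 0.41) and Itgax (2.05 ± 0.45) rose and Vtn (-1.06 ± 0.32) fell, none called without KO IOP replicates 2 and 4. Between genotypes, Cfb was lower in KO naïve retinas (-2.17 ± 0.41, adjusted p = 0.0234), with no overlap (9.60% of genes). It was at -1.79 with KO naïve replicate 3 as the only KO naïve library. In IOP Cd59a (-1.30 ± 0.32) and Cfi were lower in KO, and no gene of the list was called between genotypes after ONC. The IOP response differed between genotypes for 7 of the 26 (8.75% of all genes, 4.85% higher), higher in KO for Fcna, Cfb and Itgax and lower for Cfi, Cd59a, Clu and Vtn. Clu and Vtn had their highest group means in KO naïve libraries, at 21875 and 11007. The median pigment epithelium and rod sums were highest in that group too, and their part was not tested. Of the 7 genes of the terminal pathway, C8g was above 0 in every library, at 6.53 to 87.9, and C6 in all but 1, at up to 67.3 in KO IOP replicate 2. C8g overlaps Fbxw5 on the opposite strand, so its counts may include reads of that gene. C7 and C8a reached at most 0.816 and 2.45 normalized counts. Hc, which encodes C5 and with it the C5a ligand of C5ar1, was above 0 in only 2 libraries, at 28.0 in KO naïve replicate 4 and 5.55 in KO ONC replicate 4, and C8b and C9 were at 0 in all 23, which allows up to 4.03 normalized counts in any library. Cfd and Mbl2 were at 0 in all 23 as well.

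**Figure D5:**
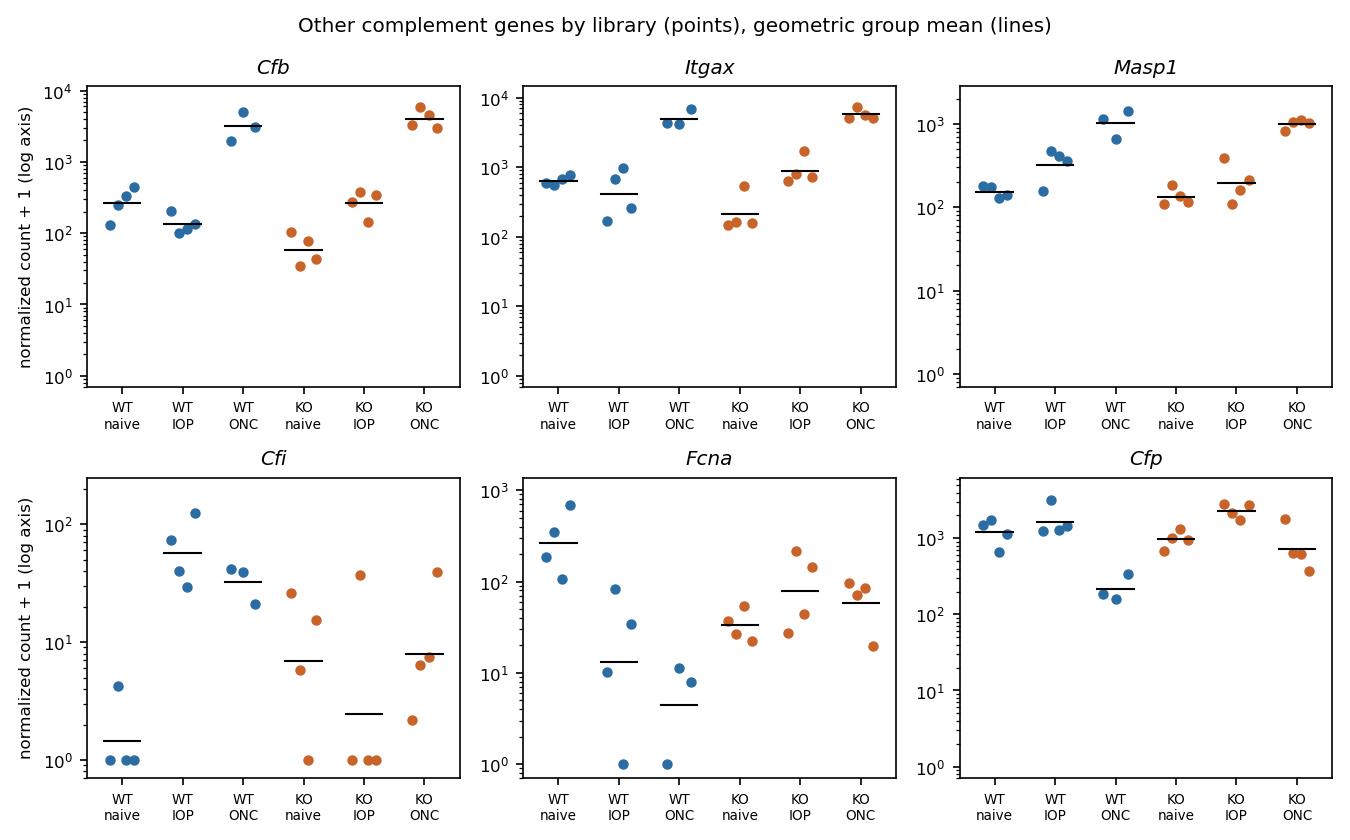
Normalized count plus 1 (log axis) of 6 other complement genes in each library (points; WT blue, KO orange), with the geometric group mean (lines). Cfb, Itgax and Masp1 are highest in the ONC groups of both genotypes, and Cfp and Fcna are lowest in WT ONC.

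The genes whose log2 values followed each member most closely over the 23 libraries, among those with a mean of at least 100, were named for each member. For C1qa they were Fermt3, Hvcn1 and Irf5 (Pearson r = 0.983, 0.980 and 0.980), for C1qb Pld4, Tcn2 and Gusb (0.990, 0.984 and 0.984) and for C1qc Ctsh, Cd68 and Lat2 (0.995, 0.986 and 0.983). For Itgam they were Sla, Ralb and Lgmn (0.979, 0.978 and 0.977), for Itgb2 Gusb, Ctsh and Trem2 (0.989, 0.985 and 0.983), for C3ar1 Ctsc, Ms4a6d and Pkib (0.980, 0.956 and 0.943) and for C5ar1 Nrros, Slc9a9 and Mpp1 (0.915, 0.896 and 0.894). The nearest genes were less close for C4b, namely Pirb, Pstpip1 and Mcub (0.876, 0.870 and 0.868), and for C3, namely Spout1, Egr2 and Tpcn2 (0.866, 0.849 and 0.842). The libraries share groups, depth and cell content, so these values are a description only.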

How the data were processed

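RNA of sorted retinal microglia was extracted with an RNeasy kit and made into libraries with a SMARTer kit. The signal in the deposited table is a normalized count per gene, that is reads divided by a size factor of each library, as the authors made it; the processing notes of the submitters name STAR, DESeq2 and GRCm38, the study's methods name salmon, and versions and strand settings are not given in the sources used here. Whole reads could be recovered for 100% of values in all 23 libraries (tolerance 0.01 reads).

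All 9 members and the gene lists were chosen with earlier results of these data known. Of 35825 gene identifiers 35436 matched a symbol. The 17102 genes that reached 10 normalized counts in 3 or more libraries entered limma 3.58.1 in R 4.3.3, on log2 of the normalized count plus 1, with 6 groups in 1 fit, a mean-variance trend and Benjamini-Hochberg adjustment over all genes tested, in 9 two-sided comparisons. A call needed a log2 fold change beyond 0.58 in either direction and an adjusted p below 0.05. Fold changes on this scale understate those of low genes. Replicates show the spread between libraries, which may be pools of mice.

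Alternatives were edgeR 4.0.16 (quasi-likelihood) and DESeq2 1.42.0 on recovered reads, other pseudocounts, filters and normalizations, a rod covariate, values relative to the myeloid genes, the compared groups alone, a replicate block, leaving out each library, and, chosen after seeing the data, leaving out 3 sets of libraries. Named were all members, other complement genes called in a comparison, and the 3 genes most alike to each member; C6, C7, C8a, C8b, C8g, C9, Hc, Cfd and Mbl2 were named after their values were seen. On simulated counts for KO against WT after IOP elevation (17102 genes), limma recovered 27 of 100 genes changed 2-fold and 87 of 100 changed 4-fold, with 7 false calls. On the same counts edgeR recovered 28 and 86, with 2 false calls, and DESeq2 46 and 94, with 51 false calls. Calls made by DESeq2 alone should be read with this in mind. The result of 1 further complement gene is not reported here. Figures were drawn with matplotlib 3.10.9.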

Additional observations from a re-analysis of the deposited data

Results flagged for a closer look

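In groups of 4 libraries, 1 library stood far from the other 3 in 19 of 115 groups of named genes, 9 of them among the 45 groups of members. Chance gives about 1 in 20 for independent groups. The members moved together over the libraries and the other genes were named because they were called, so an excess over that rate was not measured. Of the 9 among the members, 6 were KO naïve replicate 3, which was the highest of its group. It counted 145855 for C1qb (others 47786 to 58431), 99755 for C1qc (others 35639 to 37122), 31622 for Itgam (others 7175 to 8715), 15798 for Itgb2 (others 4728 to 6599), 15831 for C3ar1 (others 5232 to 5956) and 13124 for C5ar1 (others 4236 to 4709). The same library was apart for Itgax, at 538 (others 145 to 162). Its myeloid sum was also the highest of the group, as given above, and the part of cell content in these values was not tested.

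The other libraries apart among the members were WT IOP replicate 3 for C3, at 653 (others 431 to 453), KO IOP replicate 1 for Itgam, the lowest at 31791 (others 36625 to 37217), and KO IOP replicate 2 for C3ar1, at 17837 (others 15431 to 15694). C4b in KO IOP, with 2 libraries high and 2 low, is not of this kind. Among other complement genes, Cfi was apart in WT naïve replicate 2 at 3.27 (others 0), KO IOP replicate 2 at 36.2 (others 0) and KO ONC replicate 4 at 38.0 (others 1.20 to 6.43). WT IOP replicate 2 was apart for Cfp, at 3158 (others 1239 to 1467), and Cd93, at 2441 (others 695 to 930). The rest were Colec12 in KO naïve replicate 1, at 1191 (others 523 to 571), Itgax in KO IOP replicate 3, at 1686 (others 625 to 792), Cd93 in KO ONC replicate 1, at 1207 (others 313 to 426), and Clu in KO ONC replicate 4, at 17044 (others 5549 to 6421).

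The response to IOP elevation differed between genotypes, by the limma test of the difference, for 12 named genes. The log2 difference, KO minus WT, was 1.61 for C1qa, 1.55 for C1qb, 1.49 for C1qc, 2.48 for Itgam and 1.49 for Itgb2. It was 5.58 for Fcna, 3.17 for Cfb and 2.68 for Itgax, and -6.82 for Cfi, -2.28 for Cd59a, -2.05 for Clu and -1.62 for Vtn. Fcna and Cfi have libraries at 0, so that the size of their values depends on the pseudocount. Without KO naïve replicates 1, 2 and 4 only 1 KO naïve library remained, so these 12 calls could not be tested in that way.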

How the results depend on the processing

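Of 1917 alternative values of the members' log2 fold changes, 1607 kept direction and side of the threshold, 156 were no longer called, 35 were newly called, 16 changed sign with a call on 1 side, and 103 changed sign with no call. Of the 16 with a call on 1 side, 14 were relative to the myeloid genes: after IOP elevation in KO for C1qb (-0.0305), C1qc (-0.0156), Itgb2 (-0.0776) and C3ar1 (-0.10), after ONC in KO for C1qa (-0.17), Itgam (-0.0804), C3ar1 (-0.76) and C5ar1 (-1.16), after ONC in WT for Itgam (-0.61), and in the IOP difference for C1qa (-0.0322), C1qb (-0.0885), C1qc (-0.15), Itgb2 (-0.15) and C5ar1 (-0.94). C3ar1 after ONC in KO was at -0.0885 with the rod covariate and -0.15 without KO naïve replicates 1, 2 and 4. The cause was not tested.

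Members called, for KO against WT in naïve retinas, were 0, and 1 (Itgam) with a mean filter of 50, quantile normalization, the rod covariate, DESeq2 or the replicate block, and 0 to 6 leaving out 1 library. For IOP they were 0, and 1 with quantile normalization (C1qb), the compared groups alone (Itgam) or DESeq2 (C4b). After ONC in WT they were 3, then 1 with quantile normalization or relative to myeloid genes, 5 with DESeq2 and 0 to 5 leaving out 1 library. After IOP elevation in KO they were 8, then 0 with the groups alone, the rod covariate, relative to myeloid genes or without KO IOP replicates 2 and 4, and 1 to 9 leaving out 1 library. After ONC in KO they were 8, then 4 with the rod covariate and 2 relative to myeloid genes, and 7 to 9 leaving out 1 library. In the IOP difference they were 5, then 1 with the rod covariate, 2 relative to myeloid genes or with edgeR, 1 without KO IOP replicates 2 and 4, 0 without WT IOP replicates 1 and 4, and 1 to 7 leaving out 1 library; in the ONC difference 0, and 0 to 4. Counts without KO naïve replicates 1, 2 and 4 together are not given, as 1 library was left in that group.

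Same-numbered libraries did not pair: 26 correlations ran from -0.253 to 0.153, and in 0 of 7 group pairs were all over 0.1. The replicate block changed no count of members called but that of KO against WT in naïve retinas, to 1.

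Genes called, with the range over the alternatives named in the methods and over single libraries left out, were 70 (7 to 536; 1 to 1623), 360 (172 to 1413; 108 to 572) and 15 (2 to 100; 2 to 745) for KO against WT in naïve, IOP and ONC retinas, 267 (96 to 580; 106 to 336) and 3093 (1749 to 4443; 1459 to 5214) for IOP and ONC in WT, 1347 (5 to 10497; 91 to 3181) and 4043 (544 to 13082; 2798 to 5095) in KO, and 1496 (150 to 8956; 571 to 3075) and 12 (0 to 226; 3 to 634) for the differences. Higher and lower calls moved from 12 and 58, 80 and 280, 13 and 2, 144 and 123, 1292 and 1801, 866 and 481, 2165 and 1878, and 829 and 667 to 7 and 0, 14 and 1399, 3 and 1, 93 and 3, 263 and 4180, 28 and 10469, 95 and 12987, and 21 and 8935 relative to myeloid genes, in the same order without the ONC difference; with the rod covariate they were 197 and 280 for IOP in WT and 367 and 177 for ONC in KO.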
